A study of Arabidopsis thaliana with 9 samples.

Results

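The tau and phi glutathione transferases of Arabidopsis thaliana were followed across 3 treatments of whole seedlings. The genes were chosen by identifier: 41 genes, GSTU1 to GSTU28 of the tau class and GSTF2 to GSTF14 of the phi class, out of 29071 gene identifiers in the deposited tables. Of these, 40 (28 tau and 12 phi) were listed for every library, and GSTF11 is not analysed here. A mean of at least 10 normalized reads over the 9 libraries was reached by 36 genes, and in 3 (GSTU2, GSTU15 and GSTU21) no library reached 20. The seedlings were 7 days old, wild type (Col-0), grown on half-strength Murashige and Skoog medium. They were treated with water, with doxycycline (Dox, an antibiotic that inhibits protein synthesis in mitochondria and plastids) or with EtBr (ethidium bromide, which binds between the bases of DNA). Each treatment has 3 libraries, and the series is titled as a study of the mitochondrial unfolded protein response. The labels give neither the dose nor the length of treatment and do not tie replicates to separate cultures. The p-values therefore cover only variation among these libraries, which could be technical.

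Glutathione transferases join the tripeptide glutathione to reactive or foreign molecules, which marks the product for transport into the vacuole by ABC transporters of the ABCC type. Others of the family bind ligands without conjugating them or reduce peroxides. The tau and phi classes are the large plant classes. They have expanded by tandem duplication, so that many of the genes stand side by side, and many are known for being induced by herbicides, safeners, oxidised lipids, salicylate or pathogens. In Arabidopsis, TGA transcription factors, which bind the letters TGACG, and the NAC factors ANAC032 and ANAC102 take part in this xenobiotic response.

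The libraries held 17724030 to 20330871 reads on listed genes. Replicates of a group differed by more than sampling noise in every pair. EtBr replicate 3 had the lowest correlations: across genes its log2 reads gave 0.954 and 0.955 with the other EtBr libraries, against 0.977 between those. Water replicate 2 was nearly as far off, at 0.958 and 0.963 against 0.972 between the other water libraries. Of the 40 genes, 23 had their highest EtBr level in replicate 3. Replicate 3 was also the highest library for 20 of them in water and 20 under doxycycline. The summed level of 9 root markers ranged from 6249 to 16910 normalized reads in water, 5459 to 6407 under doxycycline and 12599 to 32640 under EtBr, and COBL9 and EXPA7 were at 0 in a doxycycline library. The summed level of 8 leaf markers ranged from 644021 to 703190 in water, 599426 to 700527 under doxycycline and 353752 to 597364 under EtBr. Against water, limma called 1 root marker lower under doxycycline (EXPA7, -3.02 ± 0.86). Under EtBr it called 2 higher (PYK10 and EXPA7) and 4 lower (CASP1, PIN2, SCR and WER). Under doxycycline 4 of the 9 root markers were lower at an unadjusted p under 0.05 by each of limma, edgeR and DESeq2, and 0 higher. DESeq2 called 3 lower under doxycycline and 5 lower under EtBr. The median log2 change of the 9 was -0.76 under doxycycline. PYK10 made up most of the sum, with a mean of 9443 of 10633 in water and 24017 of 24646 under EtBr. The EXPA7 call under doxycycline was lost without any 1 library, and the change was -3.71 without doxycycline replicate 2 and -1.88 without replicate 3. Of the leaf markers 0 were called under doxycycline by limma, edgeR or DESeq2, with 0 at an unadjusted p under 0.05, while 2 were called higher and 3 lower under EtBr. Both tissues are present in whole seedlings, and the part that a shift between them has in the levels below was not tested. In such bulk samples, fewer cells of a type and less RNA per cell cannot be told apart.

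Levels below are normalized reads: whole reads divided by size factors common to all 9 libraries, in the order of replicates 1, 2 and 3. A log2 change is the fitted difference of log2(value + 1) between groups, printed with its SE, with n = 3 libraries in each group. A gene was called when its limma p, adjusted by the Benjamini-Hochberg method over all genes of the table, was under 0.05.

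Phi genes held more of the reads than tau genes in every group. Tau genes together held 0.0448 ± 0.0071% of reads in water (SD, n = 3), 0.134 ± 0.019% under doxycycline and 0.150 ± 0.023% under EtBr. All 3 libraries of each treatment lay above all water libraries. Phi genes together held 0.293 ± 0.041% of reads in water, 0.354 ± 0.053% under doxycycline and 0.643 ± 0.177% under EtBr. For the phi class the doxycycline range overlapped the water range, whereas the 3 EtBr libraries lay above both. GSTF6 and GSTF7 alone went from 0.0661 ± 0.0185% of reads in water to 0.375 ± 0.134% under EtBr. No test was made of these sums.

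**Figure D1:**
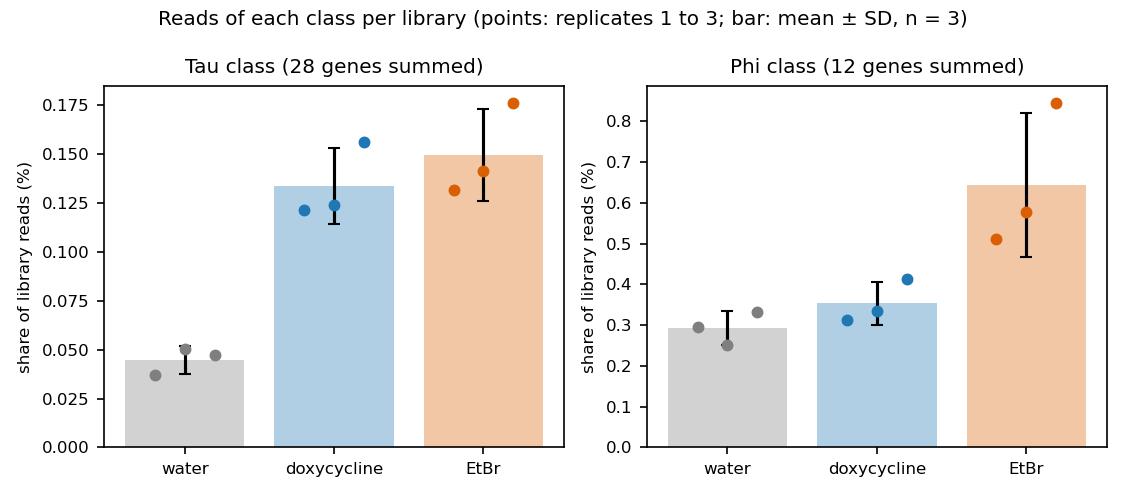
Share of library reads (%, linear axis from 0) taken by the 28 tau genes and by the 12 phi genes in water, doxycycline and EtBr; points are libraries, bars the mean and error bars the SD (n = 3). The tau share is higher under both treatments than in water (0.134% and 0.150% against 0.0448%), and the phi share is highest under EtBr (0.643% against 0.293% in water).

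Per kilobase of the deposited gene length, a few phi genes led in every group. In water the order of mean levels per kilobase was GSTF9 (12407), GSTF10 (11045), GSTF6 (7173), GSTF8 (6034), GSTF7 (3623) and then GSTU19 (2745), the leading tau gene, whose enzyme is known for activity towards model xenobiotics. Under doxycycline GSTF8 came first (10889), and under EtBr GSTF6 (33035), GSTF7 (25056) and GSTF10 (18465) came first, with GSTF8 at 4590.4. In water the ranges of GSTF9 (8012 to 15160) and GSTF10 (9303 to 12928) overlapped, as did those of GSTF6 and GSTF8 and of GSTF7 and GSTU19, while GSTF10 did not overlap GSTF6 and GSTF8 did not overlap GSTF7. Under doxycycline each of the 6 leading genes overlapped the next. Under EtBr GSTF6 (22955 to 47924) overlapped GSTF7 (17895 to 37637), and GSTF7 overlapped GSTF10 (14962 to 23416.5). GSTU9 (7623 to 15121) stood next below GSTF10 by mean, and their ranges overlapped.

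Most of the genes called higher under doxycycline were tau genes. Of the 40 genes, 11 were called higher than water and 2 lower, against 11.7% of all 24434 genes called (6.47% higher and 5.27% lower). The tau class had 10 higher (GSTU1, GSTU3, GSTU4, GSTU7, GSTU8, GSTU9, GSTU19, GSTU22, GSTU24 and GSTU25) and 1 lower (GSTU27) of 28. The phi class had 1 higher (GSTF8) and 1 lower (GSTF14) of 12. The median log2 change was 0.49 over the 40 genes, 0.79 over the tau and -0.10 over the phi genes, and -0.01 over all genes. The 3 doxycycline libraries did not overlap the 3 water libraries for 26 of the 40 genes, against 30.7% of all shared genes.

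GSTU24 and GSTU25, adjacent genes whose enzymes conjugate glutathione to the explosive trinitrotoluene, had the highest rises. GSTU24 (AT1G17170) stood at 14.4, 33.6 and 40.4 in water, 3214, 2959 and 3839 under doxycycline, and 536, 558 and 265 under EtBr. GSTU25 (AT1G17180) stood at 6.16, 3.96 and 20.2 in water, 3016, 3659 and 3146 under doxycycline, and 323, 335 and 112 under EtBr. In both genes every treated library lay far above every water library, and every doxycycline library far above every EtBr library. Under doxycycline GSTU24 rose by 6.87 ± 0.31 (adjusted p = 8.4e-07, limma) and GSTU25 by 8.47 ± 0.43 (adjusted p = 1.5e-06, limma). Water replicate 3 held the highest water level of GSTU25, and without it the change was 9.08.

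GSTU22, in another cluster, had the same order of groups. Its levels were 12.3, 4.95 and 14.9 in water, 524, 558 and 703 under doxycycline, and 57.4, 47.3 and 56.7 under EtBr. The doxycycline libraries were separate from both other groups, with a change of 5.76 ± 0.37 against water (adjusted p = 6.3e-06, limma). GSTU1 had 37.0, 56.4 and 53.2 in water, 755, 685 and 747 under doxycycline, and 289, 286 and 325 under EtBr. It rose by 3.88 ± 0.20 (adjusted p = 1.5e-06, limma), with no overlap between any of the groups. GSTU7, studied for its part in tolerance of methyl viologen, had 70.9, 85.1 and 79.8 in water, 519, 363 and 531 under doxycycline, and 239, 287 and 416 under EtBr, and rose by 2.54 ± 0.20 (adjusted p = 2.6e-05, limma). Its doxycycline range overlapped the EtBr range and lay above water.

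Further tau genes also rose under doxycycline. GSTU9 (AT5G62480) had 327, 190.0 and 221 in water, 3839, 3860.3 and 6103 under doxycycline, and 7859, 9114 and 15589.7 under EtBr. The groups did not overlap, and doxycycline raised it by 4.21 ± 0.23 (adjusted p = 2.0e-06, limma). GSTU4 had 9.25, 28.7 and 18.1 in water, 436, 366 and 454 under doxycycline, and 1461, 1396 and 1589 under EtBr, again without overlap, and rose by 4.52 ± 0.36 (adjusted p = 2.8e-05, limma). GSTU3 had 0, 0 and 3.19 in water, 9.21, 27.3 and 26.5 under doxycycline, and 259.9, 322 and 672 under EtBr, with 3 water reads in all, all of them in replicate 3. Its 62 doxycycline reads gave a ratio of 19.8 to water (exact binomial interval at 95%, counting error only, 6.47 to 98.7). The call of GSTU3 (log2 change 3.59 ± 0.71, adjusted p = 0.0091, limma) was lost on leaving out water replicate 1 or 2 or any doxycycline library, and the change was 4.28 without water replicate 3; over all alternatives its adjusted p ran from 0.00236 to 0.114. GSTU8 had 115, 136 and 214 in water, 884, 948 and 1442 under doxycycline, and 678, 611 and 1639 under EtBr, and rose by 2.81 ± 0.25 (adjusted p = 6.2e-05, limma). Its difference in EtBr against doxycycline was -0.28 ± 0.40, not called (adjusted p = 0.576, limma; 0.0375 to 0.983 over all alternatives). Without EtBr replicate 3, its highest EtBr library, it was called lower under EtBr, at -0.73 (adjusted p = 0.0375, limma).

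GSTU19 had 2562, 3839 and 2823 in water, 6191, 5899 and 8024 under doxycycline, and 5098, 5282 and 5292 under EtBr. Its treated libraries all lay above water, and under doxycycline it rose by 1.12 ± 0.17 (adjusted p = 0.0022, limma). GSTF8, whose promoter is widely used as a reporter of early stress responses in roots, had 12667, 17369 and 13316 in water, 24252, 26040.4 and 27945 under doxycycline, and 10055, 11718 and 11209 under EtBr. Doxycycline raised it by 0.85 ± 0.17 (adjusted p = 0.00873, limma) with no overlap, while the EtBr libraries lay below all water libraries. These 2 small but steady changes lost their calls when water replicate 3 or any doxycycline library was left out, with adjusted p from 3.2e-08 to 0.0839 for GSTU19 and from 5.1e-07 to 0.0988 for GSTF8 over all alternatives.

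GSTF14 and GSTU27 were lower under doxycycline. GSTF14 had 315, 124 and 695 in water, 18.4, 26.3 and 9.17 under doxycycline, and 192, 235 and 255 under EtBr. The water libraries spread widely, yet all lay above the doxycycline libraries, and the change was -4.12 ± 0.57 (adjusted p = 0.00118, limma). Without water replicate 2 it was -4.76 and without water replicate 3 -3.51, and the call was lost without water replicate 3 or doxycycline replicate 1 or 3 (adjusted p from 1.1e-06 to 0.0674 over all alternatives). GSTU27 had 867, 545 and 696 in water, 384, 393 and 364 under doxycycline, and 263, 253 and 265 under EtBr, with no overlap between groups and a change of -0.87 ± 0.17 (adjusted p = 0.00744, limma). Its call was lost without water replicate 3 or any doxycycline library and without the variance trend (adjusted p from 6.7e-05 to 0.112). Leaving out single libraries gave 8 to 11 genes higher and 0 to 2 lower.

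**Figure D2:**
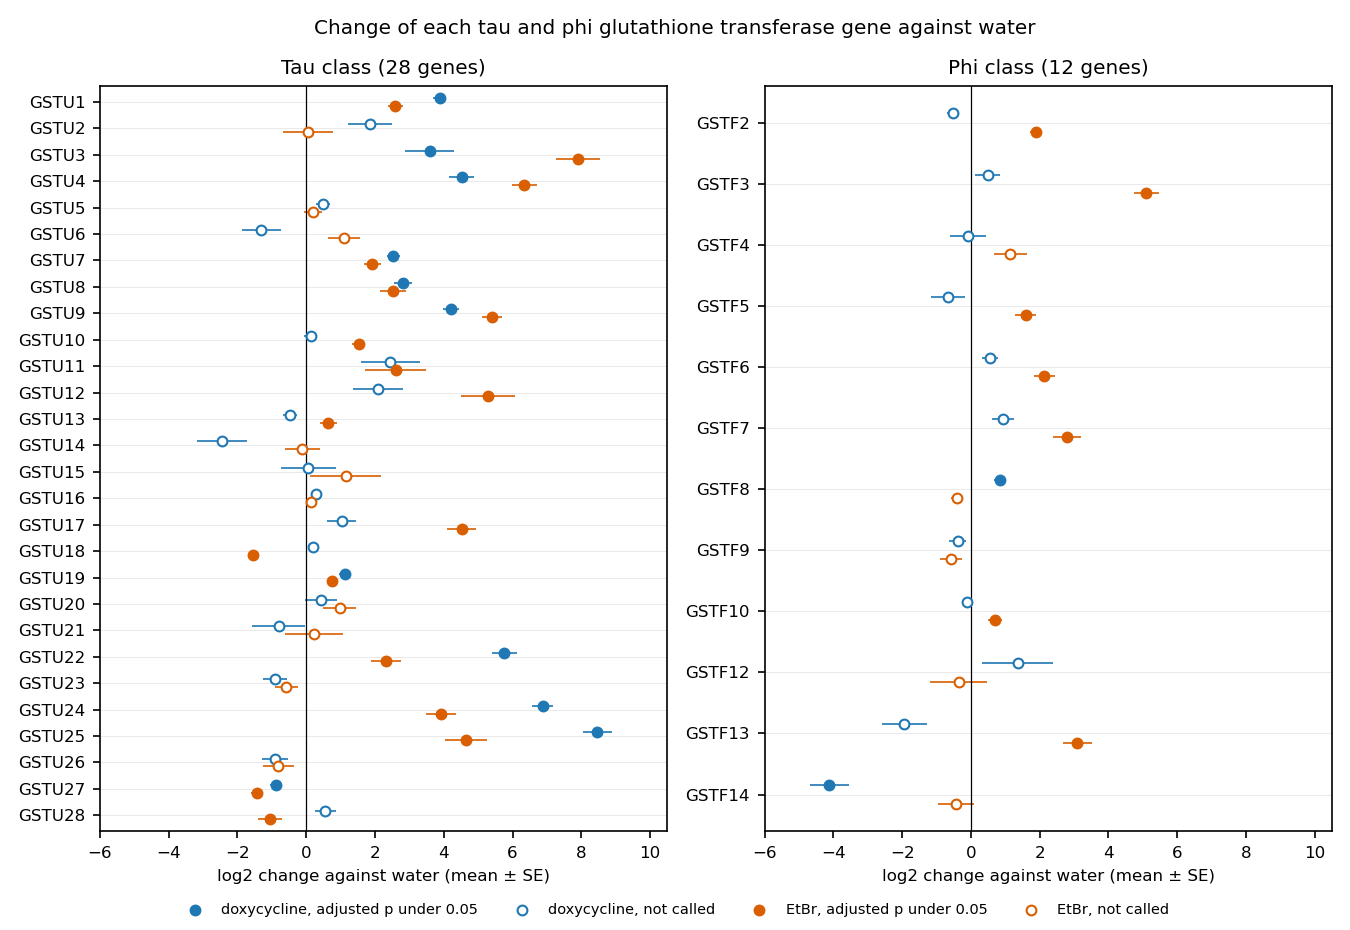
Log2 change against water (horizontal axis, ± SE from limma) of each of the 28 tau and 12 phi genes under doxycycline (blue) and EtBr (orange); filled points have an adjusted p under 0.05. Under doxycycline 10 filled points of the tau panel lie right of 0 and 1 of the phi panel, and under EtBr 15 and 7 do; both treatments share the water libraries.

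EtBr raised genes of both classes. Of the 40 genes, 22 were called higher than water and 3 lower, against 55.4% of all 28956 genes called (34.2% higher and 21.2% lower). The tau class had 15 higher and 3 lower of 28, and the phi class 7 higher and 0 lower of 12 by limma. GSTF8 was the 1 phi gene lower at an unadjusted p under 0.05, and edgeR and DESeq2 each called it lower. The median log2 change was 1.15 over the 40 genes, 1.12 over the tau and 1.37 over the phi genes. Over all genes it was 0.39, and 0.02 over genes with a mean of at least 10. Groups did not overlap for 26 of the 40 genes, against 62.7% of shared genes. The water libraries are those of the doxycycline comparison, so changes against water in the 2 treatments are not independent.

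Among phi genes, GSTF2 and GSTF3 showed the smallest adjusted p. GSTF2, a protein known to bind camalexin and auxin-related ligands, had 1352, 903 and 1052 in water, 827, 615 and 860.2 under doxycycline, and 3863, 3976 and 4382 under EtBr, and rose by 1.88 ± 0.16 (adjusted p = 4.9e-05, limma). GSTF3 had 117, 39.6 and 81.9 in water, 115, 86.1 and 110.1 under doxycycline, and 2048, 2588 and 3132 under EtBr. It rose by 5.09 ± 0.36 (adjusted p = 2.1e-05, limma), and for both genes all EtBr libraries lay above all others. Their coding sequences were 94.5% identical with a shared run of 74 bases, so reads of one could have been counted to the other. GSTF2 also overlaps TOC159, a plastid import receptor on the opposite strand, by 1442 bases. TOC159 had means of 7902 in water, 8882 under doxycycline and 5596 under EtBr, and reads of the 2 strands may not be told apart.

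Within the cluster of GSTF4 to GSTF7 lie the 2 genes with the highest mean levels per kilobase under EtBr. GSTF6, whose enzyme takes part in the synthesis of the defence compound camalexin, had 9994, 6216 and 9311 in water, 10434, 10848 and 17084 under doxycycline, and 27225, 33476 and 56837 under EtBr. GSTF7 had 6083, 2282 and 4819.8 in water, 6434, 7318 and 10424 under doxycycline, and 21706, 23819 and 45654 under EtBr. In both, EtBr replicate 3 was the highest library and all EtBr libraries lay above the others; the changes were 2.14 ± 0.30 (adjusted p = 4.8e-04, limma) and 2.80 ± 0.40 (adjusted p = 5.4e-04, limma). Without EtBr replicate 3 they were 1.83 and 2.46. These neighbours were 94.3% identical in their coding sequence with a shared run of 116 bases, so their separate levels are uncertain. GSTF5 rose by 1.60 ± 0.30 from a low level, 33.0 ± 10.3 normalized reads in water against 101 ± 12.4 (SD) under EtBr.

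GSTF10, also named ERD13 for its early response to dehydration, had 12341, 10531 and 14635 in water, 11186, 11469 and 12221 under doxycycline, and 16937, 19262 and 26508 under EtBr. All EtBr libraries lay above the others, and the rise was 0.70 ± 0.21 (adjusted p = 0.0205, limma; 0.00169 to 0.0896 over all alternatives), with the call lost without water replicate 1 or 2 or EtBr replicate 2 or 3, and without the variance trend. GSTF13 rose from 5.14, 4.95 and 11.7 to 79.1, 56.4 and 63.7 normalized reads, by 3.09 ± 0.42. Its doxycycline libraries held 3.07, 1.01 and 0, below the water range and not called (adjusted p = 0.0903, limma).

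Among tau genes, GSTU9 rose by 5.41 ± 0.29 (adjusted p = 6.7e-06, limma) and GSTU4 by 6.34 ± 0.35 (adjusted p = 8.3e-06, limma). Under EtBr the reads of GSTU3 gave a ratio of 422 to its 3 water reads (exact binomial interval, counting error only, 144 to 2047). Its fitted change was 7.90 ± 0.65 (adjusted p = 3.9e-05, limma) and 8.60 without water replicate 3. GSTU1 rose by 2.59 ± 0.23 (adjusted p = 5.1e-05, limma). So did GSTU24 by 3.92 ± 0.43, GSTU25 by 4.65 ± 0.62 (5.26 without water replicate 3) and GSTU22 by 2.32 ± 0.45, all from the levels given above. EtBr replicate 3 was the lowest EtBr library for GSTU24 and GSTU25, although it was the highest for most of the 40 genes.

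GSTU17, also named ERD9 and known as a negative regulator of drought tolerance, had 18.5, 57.4 and 34.0 in water, 54.2, 99.3 and 62.2 under doxycycline, and 584, 705 and 1213 under EtBr. It rose by 4.52 ± 0.42 (adjusted p = 6.8e-05, limma) with all EtBr libraries above the rest. GSTU12 had 46.2, 2.97 and 20.2 in water, 63.5, 57.7 and 82.6 under doxycycline, and 482, 628 and 808 under EtBr, and rose by 5.29 ± 0.78 (adjusted p = 6.3e-04, limma). Its water libraries spread more than 10-fold, and the change was 6.08 without water replicate 1 and 4.29 without water replicate 2. Its neighbour GSTU11 had 265, 18.8 and 183 in water, 352, 336 and 1354 under doxycycline, and 436, 435 and 1178 under EtBr. Replicate 3 was the highest library in both treatments and water replicate 2 the lowest of all. The GSTU11 call (2.60 ± 0.89, adjusted p = 0.0366, limma) was lost without water replicate 3 or any EtBr library, without the variance trend, at a pseudocount of 0.1, with DESeq2 and by the authors' adjusted p. The change was 3.31 without water replicate 1 and 1.44 without water replicate 2 (adjusted p from 0.00624 to 0.214 over all alternatives).

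The remaining rises under EtBr were in GSTU7 (1.93 ± 0.24), GSTU8 (2.52 ± 0.39), GSTU10 (1.52 ± 0.20), GSTU13 (0.64 ± 0.24) and GSTU19 (0.76 ± 0.17). GSTU13, an enzyme of indole glucosinolate metabolism in immunity, had 637, 869 and 1159 in water, 620.2, 734 and 548 under doxycycline, and 1498, 1605 and 1071 under EtBr. Its water and EtBr ranges overlapped, and its call (adjusted p = 0.0482, limma; 0.0227 to 0.234 over all alternatives) was lost without water replicate 1 or 2 or any EtBr library, without the variance trend and at a pseudocount of 0.1. GSTU10 overlaps a gene on the opposite strand by 279 bases, and its reads may include some of that gene, which had means of 66.7 in water and 49.0 under EtBr. It also overlaps a gene on the same strand by 21 bases, which had means of 82.8 in water and 145.5 under EtBr. GSTU7, GSTF4, GSTF10 and GSTF12 also overlap genes on the opposite strand, by 52, 1014, 12 and 108 bases.

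GSTU18, GSTU27 and GSTU28 fell under EtBr. GSTU18 had 728, 801 and 737 in water, 899.6, 887 and 835 under doxycycline, and 261, 295 and 232 under EtBr. All its EtBr libraries lay below all others, with a change of -1.55 ± 0.14 (adjusted p = 6.7e-05, limma), while its neighbour GSTU17 rose. The annotated ends of these genes overlap by 71 bases on the same strand. GSTU27 fell by 1.43 on the log2 scale (adjusted p = 3.2e-04, limma). GSTU28 had 38.0, 46.5 and 64.9 in water, 82.9, 69.9 and 66.2 under doxycycline, and 18.3, 24.5 and 27.9 under EtBr, and its call (-1.06 ± 0.35, adjusted p = 0.03, limma) was lost without water replicate 2 or 3 or EtBr replicate 1 or 2 (adjusted p from 0.0199 to 0.104 over all alternatives). Leaving out single libraries gave 19 to 23 genes higher and 2 to 3 lower.

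**Figure D3:**
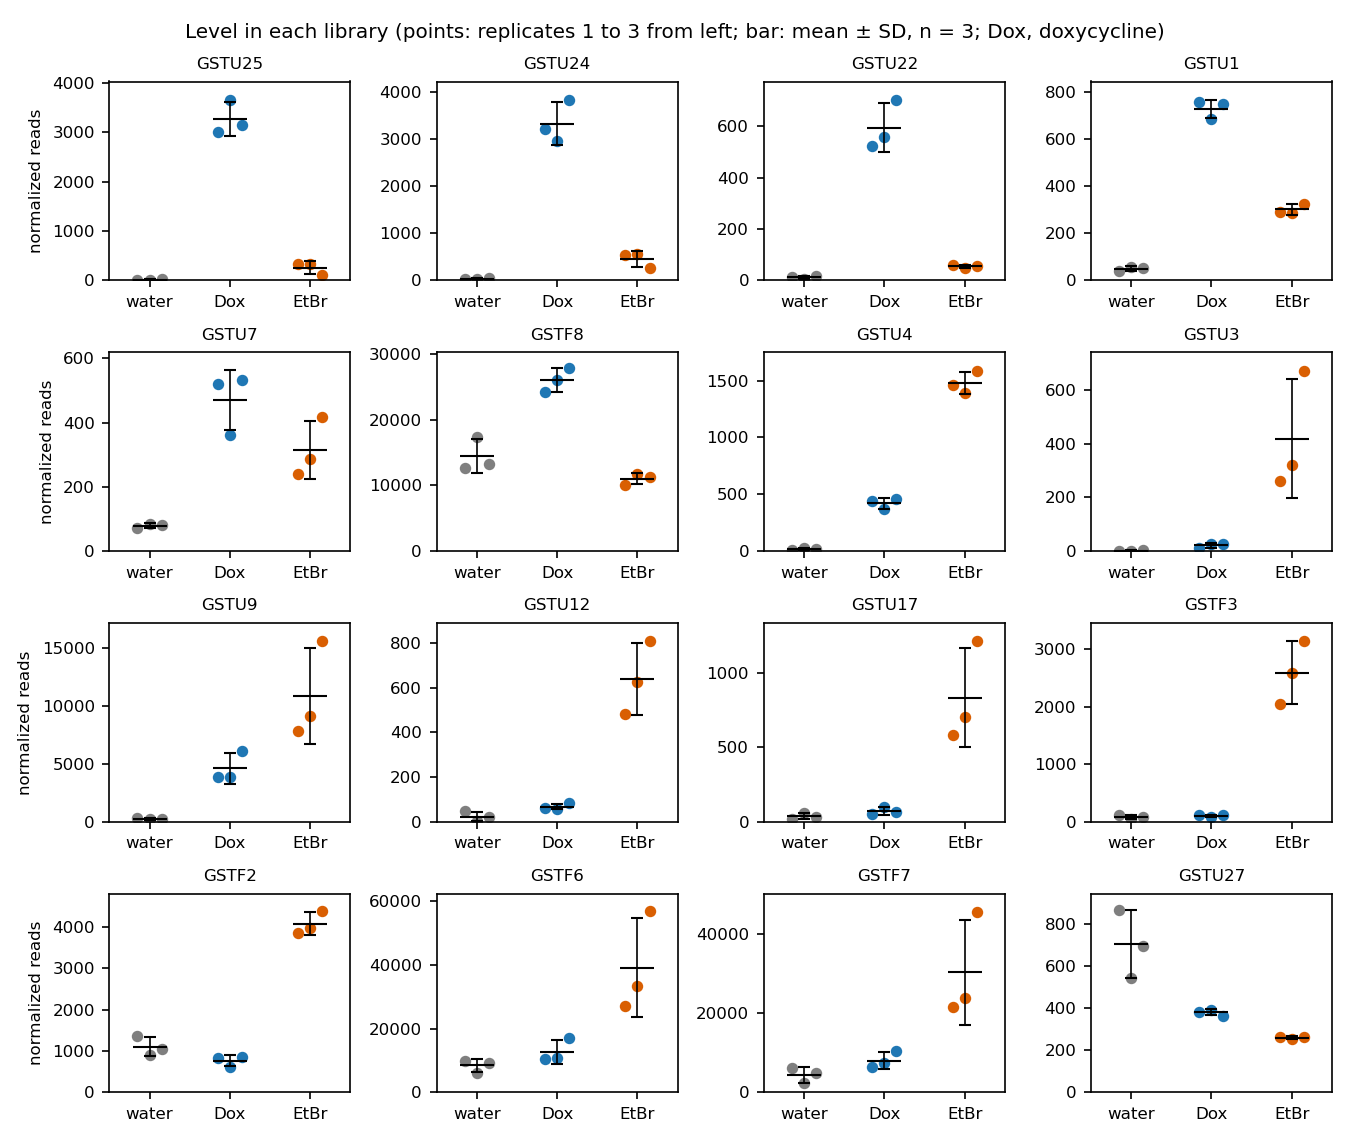
Normalized reads (linear axes from 0, a scale for each gene) of 16 tau and phi genes in each library; points are replicates 1 to 3 from the left and bars the mean ± SD (n = 3). GSTU25, GSTU24, GSTU22 and GSTU1 are highest under doxycycline, GSTU4, GSTU3, GSTU9, GSTU12, GSTU17, GSTF3, GSTF2, GSTF6 and GSTF7 under EtBr, and GSTU27 is highest in water.

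The treatments were then compared with each other directly, which tests whether a gene changed more under one than under the other. Of the 40 genes, 18 were higher under EtBr and 9 lower, against 57.3% of 24319 shared genes called (32.4% higher and 24.8% lower). Of the 12 phi genes, 9 were higher under EtBr and 1 lower. These 9 include GSTF2 with GSTF3 and GSTF6 with GSTF7, near-identical pairs that may share reads. Of the 28 tau genes, 9 were higher and 8 lower, near the shares over all shared genes. The median log2 difference was 0.68 over the 40 genes, 1.72 over the phi and 0.13 over the tau genes, and 0.14 over all shared genes. Groups did not overlap for 28 of the 40 genes, against 64.7% of shared genes. The comparison shares its libraries with those against water.

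The tau genes higher under doxycycline than under EtBr were led, by adjusted p, by GSTU22 (-3.44 ± 0.17, adjusted p = 4.3e-05, limma), GSTU18 (-1.74 ± 0.11, adjusted p = 8.2e-05), GSTU1 (-1.28 ± 0.10, adjusted p = 1.3e-04), GSTU24 (-2.95 ± 0.29, adjusted p = 3.0e-04) and GSTU25 (-3.82 ± 0.41, adjusted p = 4.0e-04). GSTU28 (-1.61 ± 0.27) and GSTU27 (-0.55 ± 0.10) were also lower under EtBr, as was the phi gene GSTF8 (-1.25 ± 0.14, adjusted p = 4.2e-04, limma). GSTU2 was called as well, on 13 doxycycline and 3 EtBr reads, a ratio of 0.229 (exact binomial interval 0.0419 to 0.834). Its call was lost without any doxycycline library or without EtBr replicate 2 or 3, at a pseudocount of 0.1 and with DESeq2, and the difference of -1.81 was -2.43 without EtBr replicate 1 (adjusted p from 0.00305 to 0.221 over all alternatives).

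By adjusted p, the genes higher under EtBr were led by GSTF3 (4.62 ± 0.19, adjusted p = 3.5e-05, limma), GSTF2 (2.42 ± 0.14), GSTU4 (1.83 ± 0.11), GSTU12 (3.20 ± 0.23), GSTU17 (3.50 ± 0.34) and GSTF14 (3.69 ± 0.39). GSTF14 stood within its wide water range under EtBr, at 192, 235 and 255. Against water its EtBr change was not called with all libraries. It was called lower without water replicate 2 (-1.07, adjusted p = 0.0393, limma) and was 0.17, not called, without water replicate 3. GSTU3 (4.27 ± 0.52), GSTF13 (5.05 ± 0.55), GSTF5 (2.28 ± 0.47), GSTF7 (1.86 ± 0.33), GSTF6 (1.58 ± 0.33), GSTU10 (1.40 ± 0.16), GSTU13 (1.12 ± 0.18) and GSTF10 (0.82 ± 0.19) were higher as well. By size, the differences of GSTF13, GSTF3 and GSTU3 were the largest of the 18. GSTU9 was higher by 1.21 ± 0.30 (adjusted p = 0.0134, limma; 2.4e-05 to 0.0555 over all alternatives), a call lost without doxycycline replicate 1 or 2. GSTU6 (2.40 ± 0.42), GSTU14 (2.34 ± 0.67) and GSTF4 (1.25 ± 0.43), at most 84.6 normalized reads in any library, were called too. GSTU14 lost its call without EtBr replicate 1 or 2 and was 1.57 without doxycycline replicate 3, and GSTF4 lost its call without doxycycline replicate 1 or 3, without EtBr replicate 1 or 3, with TMM scaling and at a pseudocount of 0.1 (adjusted p from 0.00444 to 0.0691 and from 0.0143 to 0.132 over all alternatives). Leaving out single libraries gave 16 to 19 genes higher and 8 to 12 lower; without EtBr replicate 3, 19 were higher and 12 lower.

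Neither treatment was told apart from water for several abundant genes. GSTU5 had 946, 1755 and 889 in water, 1535, 1609.5 and 1698 under doxycycline, and 1125, 1347 and 1569.9 under EtBr, with overlap in every pair of groups. GSTU16 had 343, 326 and 299 in water, 445, 377 and 376 under doxycycline, and 339, 333 and 418 under EtBr; its doxycycline libraries lay above water without passing the test (adjusted p = 0.215, limma) and its EtBr range overlapped both. GSTU20, a partner of the jasmonate enzyme FIN219 (JAR1), had 187, 319.6 and 829.9 in water, 431, 827 and 354 under doxycycline, and 668, 916 and 641 under EtBr; the water libraries alone spread more than 4-fold. GSTF9 had 17322, 9879 and 18692 in water, 9833, 11079 and 13548 under doxycycline, and 7466, 8685 and 15626 under EtBr, also with overlap. GSTF12 (TT19), which carries anthocyanins and proanthocyanidins towards the vacuole, had 0, 0 and 6.38 in water, 1.02, 20.3 and 2.04 under doxycycline, and 0.869, 0.909 and 0 under EtBr. These stand for 6 reads in water, 23 under doxycycline, nearly all in replicate 2, and 2 under EtBr. The others, GSTU15, GSTU21, GSTU23 and GSTU26, had at most 178.7 normalized reads in any library, GSTU15 and GSTU21 at most 11.8 and 4.26. A p that misses the threshold does not show that these levels are equal. Some of these genes were called when 1 water library was left out. Without water replicate 2, GSTU5 was called higher under doxycycline (0.79, adjusted p = 0.0138, limma) and under EtBr (0.52, adjusted p = 0.0434, limma). Without water replicate 3, GSTU20 was called higher under EtBr (1.55, adjusted p = 0.00484, limma).

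Most of the genes stand in tandem: 29 lie in 9 clusters, defined by neighbouring starts less than 20000 bases apart, and 11 stand alone. In several clusters called genes stood beside uncalled ones. In the cluster of GSTU1 to GSTU7 (chromosome 2, 12617936 to 12632538), 4 of 7 genes were higher than water under doxycycline and 4 under EtBr: GSTU1, GSTU3, GSTU4 and GSTU7. Between them lie GSTU2, GSTU5 and GSTU6, none of them called against water by limma with all libraries. Each was called higher when 1 water library was left out. Without water replicate 3, GSTU2 was called under doxycycline (2.395, adjusted p = 0.0299, limma), on few reads. GSTU6 was then called under EtBr (1.63, adjusted p = 0.00694, limma). Without water replicate 2, GSTU5 was called under both treatments. In the cluster of GSTU19 to GSTU23 (chromosome 1, 29467412 to 29488007), GSTU19 and GSTU22 were called higher in both comparisons and GSTU20, GSTU21 and GSTU23 in neither. GSTU24 and GSTU25 rose while GSTU26, next to them (chromosome 1, 5869543 to 5876620), had changes of -0.90 ± 0.38 under doxycycline and -0.81 ± 0.44 under EtBr, not called (adjusted p = 0.162 and 0.153, limma). In the phi cluster of GSTF4 to GSTF7 (chromosome 1, 658578 to 666471), 0 of 4 were called under doxycycline by limma, edgeR or DESeq2 (2 at an unadjusted p under 0.05), 3 were higher under EtBr than in water and 4 higher than under doxycycline. Of the pairs, GSTU11 and GSTU12 were both higher under EtBr than in water, GSTU13 and GSTU14 were both higher under EtBr than under doxycycline, and GSTU15 and GSTU16 were called in 0 comparisons by limma, edgeR or DESeq2, with 0 at an unadjusted p under 0.05. Coding sequences of 10 of 456 pairs within a class were over 80% identical. Besides the 2 phi pairs above these included GSTU1 with GSTU2 (85.5%), which differed in level throughout, and GSTU17 with GSTU18 (81.6%), which moved in opposite directions under EtBr. GSTU24 and GSTU25 were 79.4% identical, with a longest shared run of 23 bases.

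**Figure D4:**
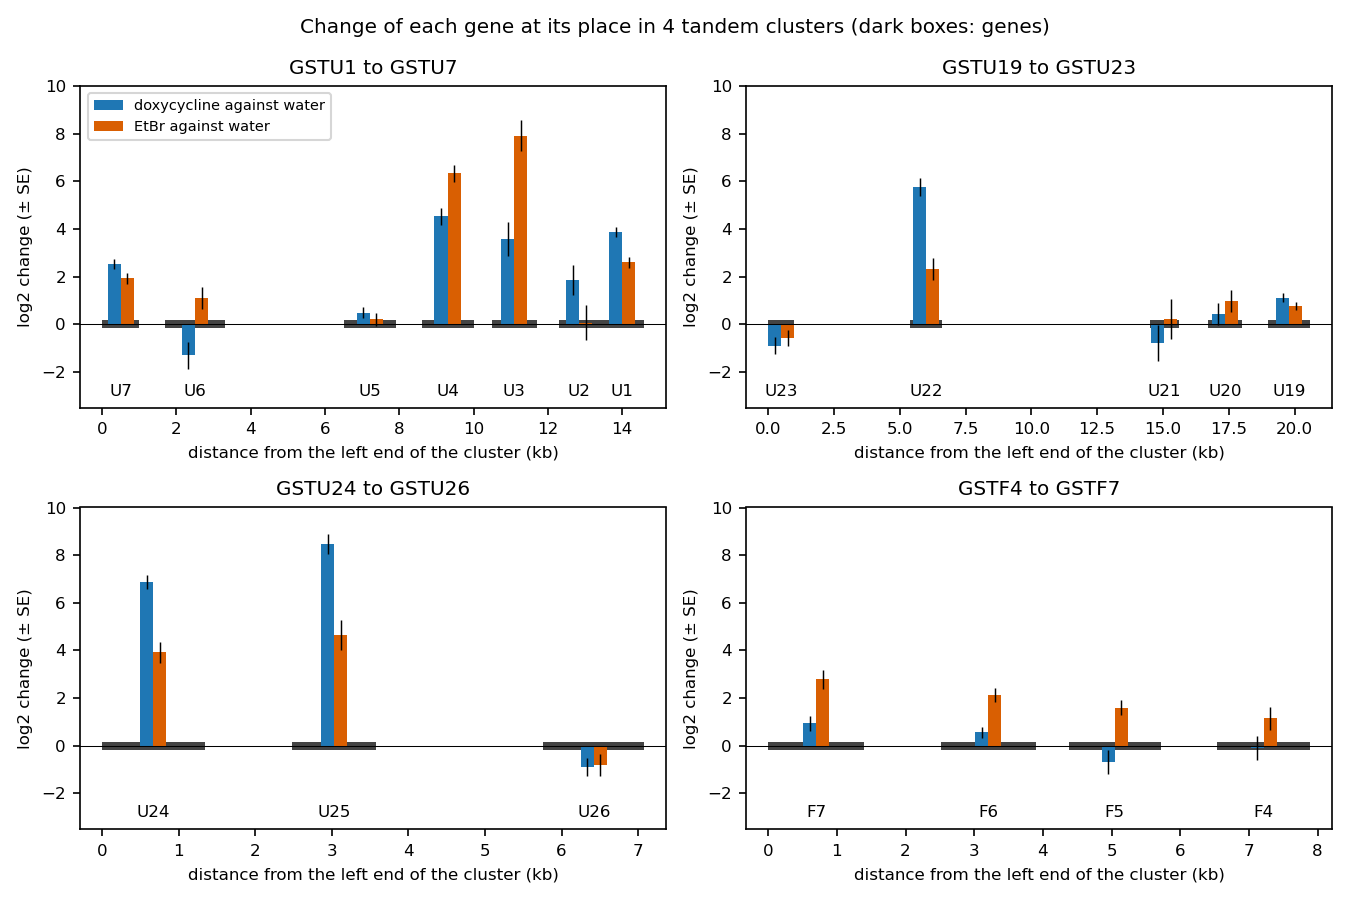
Log2 change against water (vertical axis, ± SE from limma) under doxycycline (blue) and EtBr (orange) of each gene, placed by its distance from the left end of its tandem cluster in kilobases; dark boxes on the zero line are the genes. Called genes stand beside uncalled ones in several clusters: GSTU22 has 5.76 under doxycycline, and GSTU23 beside it has -0.90.

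The sequences before the start of the genes were read next, because TGA factors bind TGACG. Shown are the 250 bases before the annotated start of GSTU22, GSTU24 and GSTU25, the genes most raised by doxycycline relative to EtBr. Those of GSTU1 and GSTU7, which carry a paired motif, and of GSTU4, which rose more under EtBr and holds no TGACG there, follow. These genes were picked and do not stand for the rest. GSTU3 and GSTU9 also rose more under EtBr and hold TGACG there. GSTU2, GSTU18 and GSTU28 were lower under EtBr than under doxycycline and hold none. The sequences come from the RefSeq TAIR10.1 assembly, whose positions equal the deposited ones for all 40 genes. Each is written 5′ to 3′ on the strand of its gene, with TGACG, or CGTCA for the other strand, in capitals. GSTU22 is at chr1:29474004-29474253, minus strand, GSTU24 at chr1:5869293-5869542, plus strand, and GSTU25 at chr1:5871774-5872023, plus strand. GSTU1 is at chr2:12632539-12632788, minus strand, and GSTU7 at chr2:12618900-12619149, minus strand. GSTU4 is at chr2:12627892-12628141, minus strand.
GSTU22: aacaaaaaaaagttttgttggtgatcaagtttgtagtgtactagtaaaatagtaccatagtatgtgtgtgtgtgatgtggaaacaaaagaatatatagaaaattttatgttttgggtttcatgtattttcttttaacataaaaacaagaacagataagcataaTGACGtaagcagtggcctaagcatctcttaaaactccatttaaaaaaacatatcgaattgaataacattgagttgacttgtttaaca
GSTU24: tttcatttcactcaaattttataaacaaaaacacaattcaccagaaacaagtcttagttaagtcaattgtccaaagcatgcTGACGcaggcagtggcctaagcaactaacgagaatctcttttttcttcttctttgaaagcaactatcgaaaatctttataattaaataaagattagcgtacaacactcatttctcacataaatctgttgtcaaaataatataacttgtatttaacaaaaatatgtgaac
GSTU25: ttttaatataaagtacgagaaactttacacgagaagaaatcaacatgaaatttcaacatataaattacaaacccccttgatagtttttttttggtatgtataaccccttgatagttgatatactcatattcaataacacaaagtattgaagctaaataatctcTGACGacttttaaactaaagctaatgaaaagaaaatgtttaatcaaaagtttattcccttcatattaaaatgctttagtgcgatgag
GSTU1: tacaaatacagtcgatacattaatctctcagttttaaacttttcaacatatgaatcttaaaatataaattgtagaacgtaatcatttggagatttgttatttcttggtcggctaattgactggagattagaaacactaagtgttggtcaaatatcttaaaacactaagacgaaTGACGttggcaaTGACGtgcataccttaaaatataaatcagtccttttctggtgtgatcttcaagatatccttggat
GSTU7: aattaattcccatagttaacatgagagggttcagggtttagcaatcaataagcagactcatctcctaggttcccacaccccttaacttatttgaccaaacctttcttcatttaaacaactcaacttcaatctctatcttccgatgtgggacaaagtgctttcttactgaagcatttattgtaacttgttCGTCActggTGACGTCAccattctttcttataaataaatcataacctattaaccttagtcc
GSTU4: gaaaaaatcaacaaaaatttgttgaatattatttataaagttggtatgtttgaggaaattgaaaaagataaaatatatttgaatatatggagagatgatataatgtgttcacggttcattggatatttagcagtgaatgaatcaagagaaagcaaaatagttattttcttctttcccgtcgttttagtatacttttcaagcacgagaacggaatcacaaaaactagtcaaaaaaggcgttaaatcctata

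In windows of 300 bases (250 before and 50 from the start, both strands searched), TGACG stood in 17 of the 40 genes, against 23.3% of the 25753 windows of protein-coding genes. Among the 11 genes higher under doxycycline 9 held it, GSTU4 and GSTU8 being the exceptions, and in GSTU19 it lies after the start. Of the 27 genes not called under doxycycline 7 held it, and of the 2 lower genes 1, GSTU27. For EtBr against water, 12 of 22 higher, 1 of 3 lower and 4 of 15 uncalled genes held it. Of the genes higher under EtBr than under doxycycline 6 of 18 held it, and of those lower 6 of 9. A pair of these letters 12 bases apart, TGACGNNNNNNNTGACG, was found in GSTU1 and GSTU7 and in 0.0777% of all windows. In GSTU7 the pair reads on the strand opposite to the gene, as CGTCA, and a further TGACG on the strand of the gene overlaps one of the pair. CTTGNNNNNCANG, a relaxed form of the motif of ANAC017 and related NAC factors, was found in GSTU27 and GSTF4 and in 2.09% of windows.

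GSTU22 and GSTU24, in different clusters of chromosome 1, share more than the 5 letters. In both the 15 bases gcagtggcctaagca begin 8 bases after the start of TGACG, and these 15 bases stood in 2 of the 25753 windows. A run picked because 2 genes share it stands in at least 2 windows, so this count does not measure how unusual it is. Other pairs also shared runs found in 2 windows, among them GSTU8 with GSTU19 (17 bases) and GSTF6 with GSTF7 (15 bases). The remaining shared runs of 15 or 16 bases stood in 3 to 424 windows. Such matches describe letters, not binding, and the lists of called genes come from the same libraries as the levels above.

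Other genes of glutathione metabolism and xenobiotic response were read from lists. In the first 5 lists below, the counts of 0 lower under doxycycline hold for limma, edgeR and DESeq2, and OPR3 was the 1 gene lower at an unadjusted p under 0.05. Of 7 genes of glutathione synthesis and reduction, 3 were higher and 0 lower under doxycycline, 6 higher and 1 lower under EtBr, and 4 higher and 1 lower in EtBr against doxycycline. GR1, the cytosolic and peroxisomal glutathione reductase, stood at 644 ± 41.8 normalized reads in water (SD, n = 3), 1224 ± 23.6 under doxycycline and 2813 ± 255 under EtBr, a 1.88-fold rise under doxycycline (adjusted p = 3.7e-04, limma) and a 4.29-fold rise under EtBr, both on the log2(value + 1) scale (adjusted p = 1.1e-05, limma). APR3, a reductase of sulfate assimilation, changed by 1.06 ± 0.24 and 3.56 ± 0.24.

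Genes for transport and breakdown of conjugates went in both directions: of 12, 3 were higher and 0 lower under doxycycline, 2 higher and 5 lower under EtBr, and 1 higher and 6 lower between the treatments. ABCC1, ABCC2 and ABCC3 are vacuolar pumps of the multidrug resistance type. ABCC3 stood at 1787 ± 194 in water, 8132 ± 1684 under doxycycline and 7905 ± 1567 under EtBr, rising by 2.16 ± 0.16 (adjusted p = 1.4e-05, limma) and 2.11 ± 0.17 (adjusted p = 3.5e-05). ABCC2 rose under doxycycline (1.01 ± 0.16) and fell under EtBr (-1.08 ± 0.18), and the difference between treatments was -2.07 ± 0.13 (adjusted p = 7.7e-05, limma). ABCC1 rose by 0.88 ± 0.14 under doxycycline and differed by -1.27 in EtBr against doxycycline. GGT2, a gamma-glutamyl transferase of the cell wall space, had 5 reads in water and 2 under doxycycline against 517 under EtBr; its change under EtBr was 6.04 ± 0.61, and 5.42 without water replicate 1.

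Of 12 genes of other glutathione transferase classes, 2 were higher and 0 lower under doxycycline, 5 higher and 4 lower under EtBr, and 3 higher and 6 lower between the treatments. The dehydroascorbate reductase gene DHAR2 rose under doxycycline by 1.29 ± 0.15 (adjusted p = 4.4e-04, limma), and GSTZ1, an enzyme of tyrosine breakdown, by 0.95 ± 0.18. Under EtBr DHAR1 rose by 1.79 ± 0.17 (adjusted p = 7.3e-05, limma) and the lambda gene GSTL2 changed by -1.61 ± 0.15 (adjusted p = 7.8e-05), and both differed from doxycycline (1.82 ± 0.14 and -1.72 ± 0.12).

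Of 6 regulators of the xenobiotic response, 2 were higher and 0 lower under doxycycline, 3 higher and 2 lower under EtBr, and 2 higher and 2 lower between the treatments. ANAC032 rose by 2.34 ± 0.18 under doxycycline and 2.91 ± 0.17 under EtBr (adjusted p = 1.9e-05 and 9.6e-06, limma), and ANAC102 by 1.56 ± 0.11 and 1.22 ± 0.11. SCL14, a partner of TGA factors, was higher by 0.57 ± 0.09 in EtBr against doxycycline. TGA2 and TGA5 were the regulators lower under EtBr (-0.60 ± 0.16 and -0.63 ± 0.16). Of the 3 oxophytodienoate reductases, OPR1 and OPR2, which also act on xenobiotics, were higher under both treatments. OPR1 rose by 2.59 ± 0.16 and 2.14 ± 0.18, and OPR2 by 2.46 ± 0.34 and 3.59 ± 0.35. Of the doxycycline calls named here, APR3 was lost without any 1 library, GSTZ1 without any 1 library but water replicate 2, ABCC2 without any doxycycline library, and OPR2 without water replicate 2 or any doxycycline library. OPR3, the jasmonate synthesis enzyme, had -0.39 ± 0.14 under doxycycline (adjusted p = 0.106, limma, not called) and -2.20 ± 0.18 under EtBr (adjusted p = 3.9e-05).

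Partners of single phi genes were examined as well. Of 4 anthocyanin genes measured in both tables, 0 were called under doxycycline by limma, edgeR or DESeq2 (1 at an unadjusted p under 0.05 by limma) and 3 were higher under EtBr: DFR with 2 reads in water and 120 under EtBr, LDOX with 3 and 161, and UF3GT with 0 and 87. The ratio to water was 57.1 for DFR (exact binomial interval 15.5 to 477) and 51.1 for LDOX (17.2 to 250.4), and UF3GT was at least 27.6-fold higher, taking 3 reads over the group as the floor; GSTF12 itself had 2 reads under EtBr. PAP1, a regulator of the pathway measured in the EtBr table alone, was listed at 0 in the 3 water libraries and at 1.76, 10.12 and 3.02 normalized reads of that table under EtBr, and was called higher (adjusted p = 0.0112, limma). These PAP1 values lie near the floor and are highest in EtBr replicate 2. Of the 5 anthocyanin genes listed, limma called 4 higher under EtBr than in water, and edgeR and DESeq2 called 3 each. Between the treatments 3 were higher and 1, TT8, lower under EtBr. Of 5 glucosinolate genes, partners of GSTF9 to GSTF11 and GSTU20, 0 were called under doxycycline by limma, edgeR or DESeq2 (0 at an unadjusted p under 0.05), 3 were lower under EtBr than in water and 3 lower than under doxycycline, with 0 higher in either by any of these tools (0 at an unadjusted p under 0.05). The sulfotransferase genes SOT17 and SOT18 changed by -2.26 ± 0.47 and -2.41 ± 0.48 under EtBr (adjusted p = 0.00365 and 0.0029, limma), and the lyase gene SUR1 by -1.10 ± 0.26. SOT17 lost its call without EtBr replicate 1 or 2.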

How the data were processed

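Doxycycline and EtBr each have a table, with 24434 and 28956 genes, that also covers the water libraries. Library columns hold a signal that the authors deposited as normalized values. Each value was found to be a whole count of reads times a constant of its column, in 100% of values of all 12 library columns within 0.001 of a read; where that constant lies near 1 the test is weak. The authors also deposited log2 fold changes with p-values and adjusted p-values. Per the submitters' processing notes, without their roles, the tools were DESeq 1.18.0, HTSeq 0.6.1, TopHat2 2.0.12, Bowtie2 2.2.3 and CASAVA 1.8. Total RNA entered a NEBNext Ultra library kit, per the labels' protocols. Genome build, read length and strandedness: not given in the sources used here. Overlapping and near-identical genes may therefore share reads.

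Each treatment was tested against water within its table with limma 3.58.1 (R 4.3.3, mean-variance trend) on log2(value + 1), with 6 libraries and without a replicate block, and p-values were adjusted by the Benjamini-Hochberg method (threshold 0.05). For EtBr against doxycycline the whole reads of the 24319 genes in both tables were rescaled with median-ratio size factors over the 9 libraries together and fitted alike. This common scale also gives the levels printed. It moved log2 changes against water by a median of 0.0139 (doxycycline) and 0.0234 (EtBr), taken over genes with high mean levels alone. The fits were tested on simulated data, where limma recovered fewer of the known changes than edgeR in every comparison. Intervals are exact binomial at 95%, and intervals and floors (3 reads) cover counting error only. Alternatives changed the pseudocount (0.1, 5), the low-value filter (means below 10 removed), the adjusted p (0.01), the centring, the trend, the replicate block, the scaling (TMM), the tool (edgeR 4.0.16, DESeq2 1.42.0, the authors' adjusted p) and the libraries. The common scale for the comparisons against water was chosen after seeing the data.

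The 41 genes and the lists of other genes were chosen with earlier results of these data known. Values in every library are given for the 6 genes with the smallest adjusted p in each direction and comparison, the highest gene of each tandem cluster, and 8 genes fixed by name (GSTF6, GSTF7, GSTF8, GSTF12, GSTU19, GSTU20, GSTU24 and GSTU25). For each other list the 2 genes with the smallest adjusted p in each comparison are named, besides genes named because a count was small. The other lists hold other glutathione transferase classes, glutathione synthesis and reduction, conjugate transport and breakdown, xenobiotic regulators, oxophytodienoate reductases, anthocyanin and glucosinolate partners, and root and leaf markers. Promoter letters were read from the RefSeq TAIR10.1 assembly, in which 28255 of 29071 identifiers matched, 99.98% with the same start and end.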

Additional observations from a re-analysis of the deposited data

How the results depend on the processing

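Of the genes called against water, 8 of 13 kept their call under doxycycline and 21 of 25 under EtBr whichever 1 library was left out, and 23 of 27 did between the treatments. Called genes kept their direction in every alternative run. Leaving out single libraries gave 8 to 11 higher and 0 to 2 lower genes for doxycycline against water, 19 to 23 and 2 to 3 for EtBr against water, and 16 to 19 and 8 to 12 between the treatments. For the other pathway genes the ranges were 6 to 10 and 0 to 0, 21 to 22 and 11 to 15, and 14 to 15 and 19 to 22. For all genes they were 520 to 1168 and 248 to 812, 8433 to 9727 and 4874 to 5760, and 6789 to 7999 and 4904 to 6270. Fewer samples enter these fits. The count of genes lower under doxycycline (2) was 1 without the variance trend, 4 with DESeq2 and 4 by the authors' adjusted p, the further genes being GSTU14 and GSTF2; the cause was not tested. At a threshold of 0.01, which is stricter by construction, 10 other pathway genes were lower under EtBr, and 834 of all genes were higher and 447 lower under doxycycline; without the variance trend these were 872 and 553. With edgeR 10 of the 40 genes were higher and 3 lower under doxycycline, 22 and 4 under EtBr, and 18 and 10 between the treatments. Whether the replicate numbers pair the samples was not settled. In their deviations from group means, same-numbered libraries correlated by -0.214 to 0.196 between water and a treatment. Between doxycycline and EtBr the values were 0.0792, 0.153 and 0.348, and replicates 1 and 3 correlated best with their own number. With the replicate block the counts were 12 higher and 3 lower for doxycycline, 21 and 3 for EtBr, and 18 and 10 between the treatments; GSTU13 (EtBr against water, adjusted p = 0.0547, limma) and GSTF4 (between the treatments, adjusted p = 0.0781, limma) were called without the block and not with it.

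Some changes that were uncalled with all libraries took the other sign in an alternative. Leaving out single libraries moved GSTU15 under doxycycline from -0.33 to 0.85, GSTU20 from -0.053 to 1.02, GSTF4 from -0.49 to 0.38 and GSTF10 from -0.23 to 0.018. Under EtBr it moved GSTU2 from -0.56 to 0.62, GSTU14 from -0.62 to 0.39, GSTU21 from -0.34 to 1.04, GSTF12 from -0.84 to 0.62 and GSTF14 from -1.07 to 0.17. Between the treatments it moved GSTU11 from -0.32 to 0.82, GSTU26 from -0.13 to 0.48 and GSTF9 from -0.50 to 0.033. GSTU15 under doxycycline was -0.046 at a pseudocount of 5 and -0.49 in the authors' deposited table, GSTF12 under EtBr was 0.20 at a pseudocount of 0.1, and GSTU11 between the treatments was -0.075 with edgeR and -0.031 with DESeq2. Depth limits GSTU2, GSTU15, GSTU21 and GSTF12, whose groups hold few reads.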
